A study of Danio rerio with 9 samples.

Results

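The transcriptomes of zebrafish primordial germ cells (PGCs) were compared between the 3-somite stage, 11 h post fertilization (hpf), and the shield stage, 6 hpf. The comparison used the 3 PGCs sequenced at 11 hpf, named 11_1 to 11_3, and the 3 PGCs sequenced at 6 hpf, named 6_1 to 6_3. Levels are given as FPKM, fragments scaled by the length of the transcript and by the mapped fragments of the cell. Genes were included when 3 or more of these 6 cells had an FPKM of 1 or higher, and 7770 of 32266 annotated genes (24.1%) met this filter. In the whole series of 9 cells, which also holds 3 PGCs at 24 hpf, 9329 genes passed when 3 or more cells were required.

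Both groups were AB strain fish that carried the same transgene, kop-egfp-nanos3-3'UTR. The germ cell specific kop promoter drives EGFP with the 3'UTR of nanos3, so PGCs could be picked by hand under green fluorescence, and values of nanos3 may include reads of the transgene. Single cells were amplified by Smart-seq2, which copies whole transcripts, and each cell was sequenced as a library of its own. Because 1 embryo supplied all 3 cells of its stage, stage and embryo cannot be told apart, a stage counts as 1 sample and no difference was tested. The labels give gonad as the tissue and PGC as the cell type at both stages.

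In zebrafish, germ cell fate is set by germ plasm, a maternal store of RNA and protein that a few cells of the early embryo inherit. These cells express genes such as nanos3, dnd1 and ddx4, which protect germline RNA and keep somatic programmes in check. From the shield stage to early somitogenesis PGCs migrate towards the gonad region along gradients of the chemokine Cxcl12a, which they sense through the receptor Cxcr4b. In the same period the embryo clears maternal RNA and comes to rely on zygotic transcription, which Nanog, Pou5f3 and SoxB1 factors help to start.

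A gene was called higher at 11 hpf when every cell at 11 hpf exceeded every cell at 6 hpf and all 3 cells at 11 hpf had an FPKM of at least 1. It was called lower at 11 hpf when the reverse held, with an FPKM of at least 1 in all 3 cells at 6 hpf. The difference of a gene is log2(mean FPKM at 11 hpf + 1) minus log2(mean FPKM at 6 hpf + 1), so that its size is understated for genes of low level. Its spread combines the SDs over the cells at 11 hpf and at 6 hpf on the log2(FPKM + 1) scale, as the square root of their summed squares. For a gene list the median of its genes' differences is given, and its spread is formed in the same way from the mean log2(FPKM + 1) of the list in each cell. Values of the 3 cells of a stage are always given in the order of cells 1, 2 and 3, and a value of 0 means that the gene was listed at 0 in that cell. FPKM hold no read counts, so the depth behind a single value is unknown.

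The rule was met by 521 genes that were higher at 11 hpf (6.71% of those kept) and by 625 genes that were lower (8.04%). Most genes (85.3%) met it in neither direction, and the median difference over all kept genes was 0.04, with 48.3% of genes below 0. The median difference was 1.73 over the higher genes (0.26 to 6.29) and -2.32 over the lower genes (-7.21 to -0.24), and 438 and 553 of them differed by at least 1, which is 2-fold. These counts rest on all 6 cells: with 1 cell left out the rule is easier to meet, and between 763 and 992 genes were then higher and between 937 and 1004 lower. Without 11_3 the shares over all kept genes were 12.3% higher and 12.4% lower, and counts of list members without that cell are to be read against these.

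Many of the lower genes were listed at or near 0 at 11 hpf. Of the lower genes, 206 (33%) were below an FPKM of 1 in all 3 cells at 11 hpf and so passed the filter only through 6 hpf, and 152 (24.3%) were at 0 in every cell at 11 hpf. Of the higher genes, 52 (9.98%) were below 1 in all 3 cells at 6 hpf and 40 (7.68%) were listed at 0 there. A kept gene below 1 in every cell of a stage must reach 1 in every cell of the other stage. Such a gene meets the rule through the filter alone, so these counts only restate how many kept genes were not detected at a stage. This holds for every gene named below whose values are under 1 in all 3 cells of a stage, whether or not it is said again. Each PGC at 11 hpf had an FPKM of at least 1 for 5853, 5983 and 5818 of the kept genes, against 6573, 6386 and 6330 of them at 6 hpf. The mean was 5885 ± 86.9 genes at 11 hpf and 6430 ± 127 genes at 6 hpf (SD, n = 3 cells of 1 embryo each), and the groups of cells did not overlap. Among genes with an FPKM of at least 1 in the 5 other cells, between 8.74% and 12.6% were below 1 in a given cell at 11 hpf, against between 5.63% and 7.06% in a given cell at 6 hpf. The part of missed transcripts in the calls was not tested.

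Among the 2934 genes with an FPKM of at least 1 in all 6 cells, 9.27% were higher and 6.75% lower at 11 hpf, with a median difference of 0.14. Within this set the 272 higher genes had a median difference of 1.24 and the 198 lower genes one of -1.23. The share of lower genes was 17% among the 218 genes with a mean FPKM of at least 300 and 10.1% among the 809 genes with a mean below 5, and the share of higher genes was largest, with 10.5%, between 100 and 300 FPKM.

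**Figure D1:**
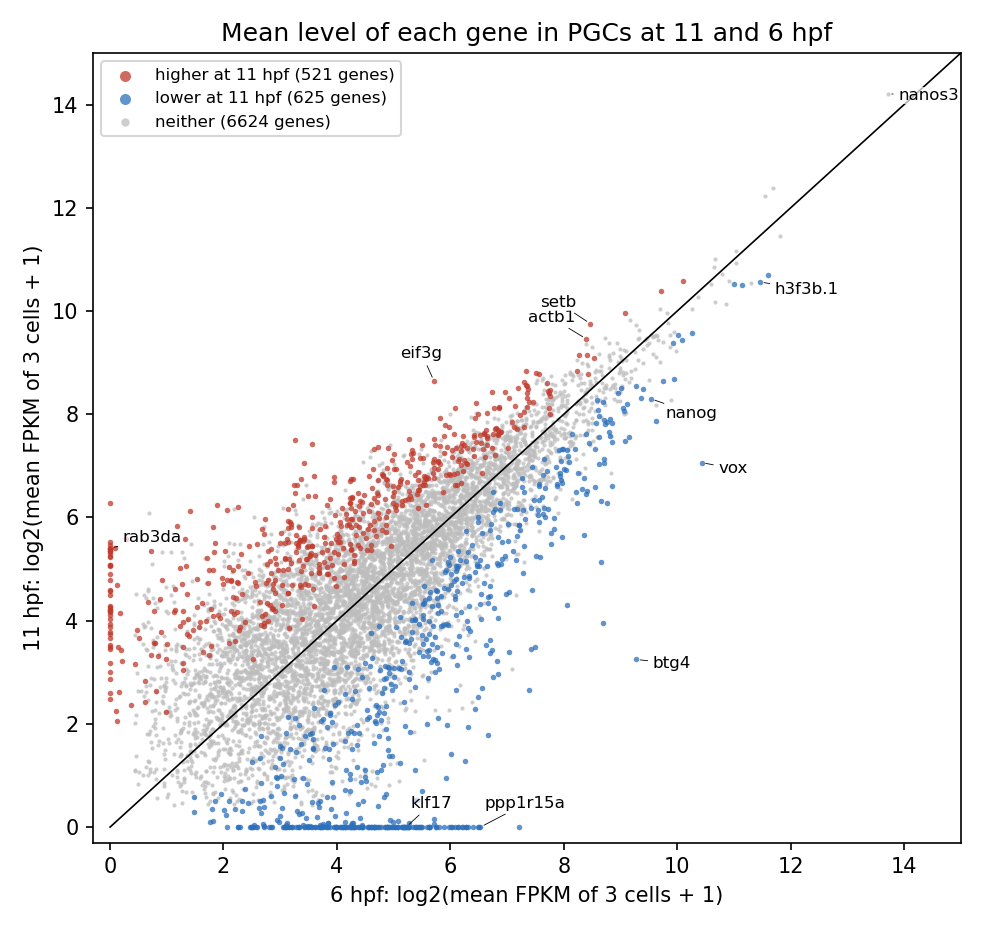
Mean level of the 7770 kept genes at 11 hpf (vertical axis) and at 6 hpf (horizontal axis), each as log2(mean FPKM of 3 cells + 1), with the 521 genes higher at 11 hpf in red, the 625 lower ones in blue and the others in grey. Points on the axes are genes listed at 0 in all 3 cells of a stage, and the lower genes hold 152 of these against 40 among the higher genes. Every kept gene on an axis meets the rule through the filter alone.

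The cells were checked against marker genes of PGCs and of other embryonic cell types. Of 10 PGC genes, 8, 8 and 9 had an FPKM of at least 1 at 11 hpf, against 8, 10 and 10 at 6 hpf. Their summed FPKM was 44490, 37090 and 20920 at 11 hpf, against 18090, 32990 and 21160 at 6 hpf. The 9 of these genes that were kept had a median difference of 0.45 (spread 0.36), with 8 above 0. Of them 1 (11.1%) met the rule as higher and 0 as lower, against 6.71% and 8.04% of all kept genes. Their median was not taken with a cell left out. Of 19 markers of the enveloping layer and epidermis, 8, 7 and 1 reached an FPKM of 1 at 11 hpf, with summed FPKM of 321.2, 78.5 and 13.96, against 1, 3 and 0 markers at 6 hpf, with 10.6, 38.7 and 0. The epidermal keratin krt4 stood at 122, 9.62 and 0 FPKM at 11 hpf. Markers of the yolk syncytial layer, mesoderm, endoderm and neural tissue were partly present at both stages. Of 28 markers of paraxial and ventral mesoderm, 8, 8 and 4 reached an FPKM of 1 at 11 hpf, with summed FPKM of 1488, 1802 and 200.1, against 9, 5 and 9 at 6 hpf, with 1782, 504.7 and 1337. The highest of these in 11_1 and 11_2 was ved, which is also in the list of early transcription factors. Of 14 endoderm markers, 3, 4 and 2 were present at 11 hpf, against 6, 2 and 4 at 6 hpf. The summed FPKM of the endoderm markers did not overlap, with 216.5, 261.7 and 39.31 at 11 hpf, against 448, 392.3 and 465.6 at 6 hpf. Of 17 yolk syncytial layer markers, 1, 4 and 1 reached an FPKM of 1 at 11 hpf, against 2, 1 and 1 at 6 hpf. Their summed FPKM overlapped, with 262.8, 380.2 and 107.5 at 11 hpf, against 354.1, 299.9 and 386.6 at 6 hpf. The only one of them that was kept, apoeb, fell, with 263, 213 and 107 FPKM at 11 hpf, against 313, 299.9 and 387 FPKM at 6 hpf. The part of RNA from other cells in the results was not tested. Correlations between cells were taken across the kept genes on log2(FPKM + 1). With the cells at 6 hpf, that of 11_3 was slightly lower, at 0.431 to 0.464, against 0.465 to 0.495 for 11_1 and 11_2. Among cells at 11 hpf the correlation was 0.504 for 11_1 with 11_2, 0.487 for 11_2 with 11_3 and 0.456 for 11_1 with 11_3. Between cells at 6 hpf it was 0.53 to 0.58. Values without 11_3, or the range with each cell left out in turn, are given beside the list medians.

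Of the genes expressed in the germ plasm and germline, 26 were in the table and 21 were kept. Of these, dazl rose and h1m fell, which is 4.76% in each direction, against 6.71% higher and 8.04% lower of all kept genes. The median difference of 0.03 was within the spread of 0.38. The median was 0.42 without 11_3 and -0.087 without 6_2. The most abundant germline genes had overlapping cells. The FPKM of nanos3, an RNA-binding regulator of germ cell survival (ENSDARG00000068255), was 24068, 20372 and 12389 at 11 hpf, against 9153, 20639 and 10426 at 6 hpf (difference 0.50, spread 0.80). That of ca15b, a carbonic anhydrase gene with PGC expression, was 7041, 6307 and 2661 at 11 hpf, against 3361, 3150.3 and 3427 at 6 hpf. Both 11_1 and 11_2 were above every cell at 6 hpf for ca15b, while 11_3 was below them. For dnd1, 11_1 and 11_2 were again above all cells at 6 hpf, and 11_3 lay among them. For tdrd7a, a Tudor protein of germ granules, the values were 1319, 916 and 296 FPKM at 11 hpf, against 557, 797 and 502 FPKM at 6 hpf. Here 11_1 and 11_2 were above and 11_3 below all 3 cells at 6 hpf as well.

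The translational regulator dazl (ENSDARG00000036214) was the germline gene that rose, with 96.5, 105 and 109.7 FPKM at 11 hpf, against 36.4, 4.96 and 59.5 FPKM at 6 hpf (difference 1.596, spread 1.77). The 3 cells at 11 hpf were nearly equal, and the cells at 6 hpf were scattered below them. The maternal linker histone gene h1m (ENSDARG00000102892) fell, with 1398, 1671 and 1298 FPKM at 11 hpf, against 2177, 2479 and 2114 FPKM at 6 hpf (difference -0.63, spread 0.22). The helicase gene ddx4, also known as vasa, stood at 695, 739.8 and 383 FPKM at 11 hpf, against 603, 569 and 435 FPKM at 6 hpf, and the cells overlapped. The piRNA pathway gene piwil1 was not found in every cell of either stage. FPKM of piwil1 were 0, 0 and 20.2 at 11 hpf, against 0, 2.97 and 12.7 at 6 hpf.

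Several transcription factors of the early embryo were lower at 11 hpf. Of 39 genes in the table, 21 were kept, 7 of these (33.3%) were lower and 1 (4.76%) was higher at 11 hpf, against 8.04% and 6.71% of all kept genes. Without 11_3, 7 genes (33.3%) were lower and 3 (14.3%) higher, against 12.4% and 12.3% of all kept genes. The median difference over the list was -0.31, within its spread of 0.98, but it moved with single cells, being -0.84 without 11_1, -0.72 without 11_2, -0.62 without 6_3 and -0.20 without 11_3. With the mean of log2 values it was -1.04, beyond the spread. Among the 14 members with an FPKM of at least 1 in all 6 cells the median was -0.23, with 5 above 0. Of the lower genes, vent and klf17 were at 0 in every cell at 11 hpf, so they passed the filter only through 6 hpf. The mean log2(FPKM + 1) over the 21 genes was 5.48, 5.84 and 4.01 at 11 hpf, against 6.40, 6.10 and 6.28 at 6 hpf, so that the groups did not overlap and 11_3 lay lowest.

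The homeobox repressors vox and vent, which act on the ventral side of the embryo, both fell. The FPKM of vox (ENSDARG00000099761) was 136, 228 and 34.0 at 11 hpf, against 1712, 613 and 1808 at 6 hpf (difference -3.37, spread 1.65). Its partner vent (ENSDARG00000100483) was at 0 in every cell at 11 hpf, against 20.8, 8.09 and 37.9 FPKM at 6 hpf. The third member of this group, ved, did not move in this way and stood at 665, 723 and 43.0 FPKM at 11 hpf, against 875, 293 and 349.6 FPKM at 6 hpf. Both vox and vent were at 0 in every cell at 24 hpf, whereas ved was at 133, 653 and 945 FPKM there.

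Of the factors that start zygotic transcription, nanog fell with a difference of -1.24 (spread 1.71) and sox3, a SoxB1 gene, with one of -1.83 (spread 1.27). The lowest cell at 11 hpf was 11_3 for both. Another SoxB1 gene, sox2, was listed at 0 in every cell of both stages. The paper reports a decrease of sox19b with development, but a maximum of sox19a, at a low level, in the middle stage. Values of sox19a and sox19b are not given here, so the fall of sox3 is not extended to the SoxB1 genes as a group. The other members of the list that fell, pou5f3 and klf2b, were named after their values were seen. FPKM of pou5f3 were 178, 195 and 97.7 at 11 hpf, against 249, 231 and 312 at 6 hpf, and those of the Krüppel-like factor klf2b were 199, 175 and 64.2 at 11 hpf, against 256, 272 and 281 at 6 hpf. Another Krüppel-like factor, klf17 (ENSDARG00000038792), was at 0 in every cell at 11 hpf and had 37.8, 30.0 and 41.2 FPKM at 6 hpf. The transcription factor foxh1 (ENSDARG00000055630), which acts with Smad proteins in Nodal signalling, was the member that rose, with 122, 131 and 165 FPKM at 11 hpf, against 15.6, 50.3 and 88.3 FPKM at 6 hpf (difference 1.42, spread 1.26). Its 3 values at 11 hpf were close together and all above the highest cell at 6 hpf.

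The chromatin protein gene hmga1a was the most abundant member of this list after vox, and its cells overlapped, with 606, 559.8 and 962 FPKM at 11 hpf, against 648, 604 and 674 FPKM at 6 hpf.

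A large fall at a high level was that of btg4 (ENSDARG00000035171), which in mice recruits the CCR4-NOT deadenylase to maternal mRNA. Its FPKM was 25.5, 0 and 0 at 11 hpf, against 726, 763 and 364 at 6 hpf (difference -6.03, spread 2.79), and it was listed at 0 in all 3 cells at 24 hpf. Among genes of mRNA decay and deadenylation, 5 of 48 kept genes (10.4%) were higher and 4 (8.33%) lower, against 6.71% and 8.04% of all kept genes. The median difference was 0.04 (spread 0.35, and -0.10 to 0.21 with a cell left out). The lower ones were btg4, cnot8, ythdf1 and lsm14b. The deadenylase subunit gene cnot8 had 38.1, 50.9 and 0 FPKM at 11 hpf, against 75.3, 62.1 and 119 FPKM at 6 hpf, and ythdf1, a reader of methylated adenosine in mRNA, had 0, 0.0616 and 0 FPKM at 11 hpf, against 16.5, 6.29 and 14.6 FPKM at 6 hpf. The RNA-binding protein gene lsm14b had 86.4, 58.3 and 0 FPKM at 11 hpf, against 167, 221 and 357 FPKM at 6 hpf, while its relative lsm14ab rose, with 6.96, 30.7 and 20.4 FPKM at 11 hpf, against 0, 1.03 and 5.23 FPKM at 6 hpf. The CCR4-NOT ubiquitin ligase subunit cnot4a and the nuclear exosome nuclease exosc10 were also higher. FPKM of exosc10 were 75.3, 46.4 and 58.1 at 11 hpf, against 23.5, 16.6 and 32.1 at 6 hpf.

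**Figure D2:**
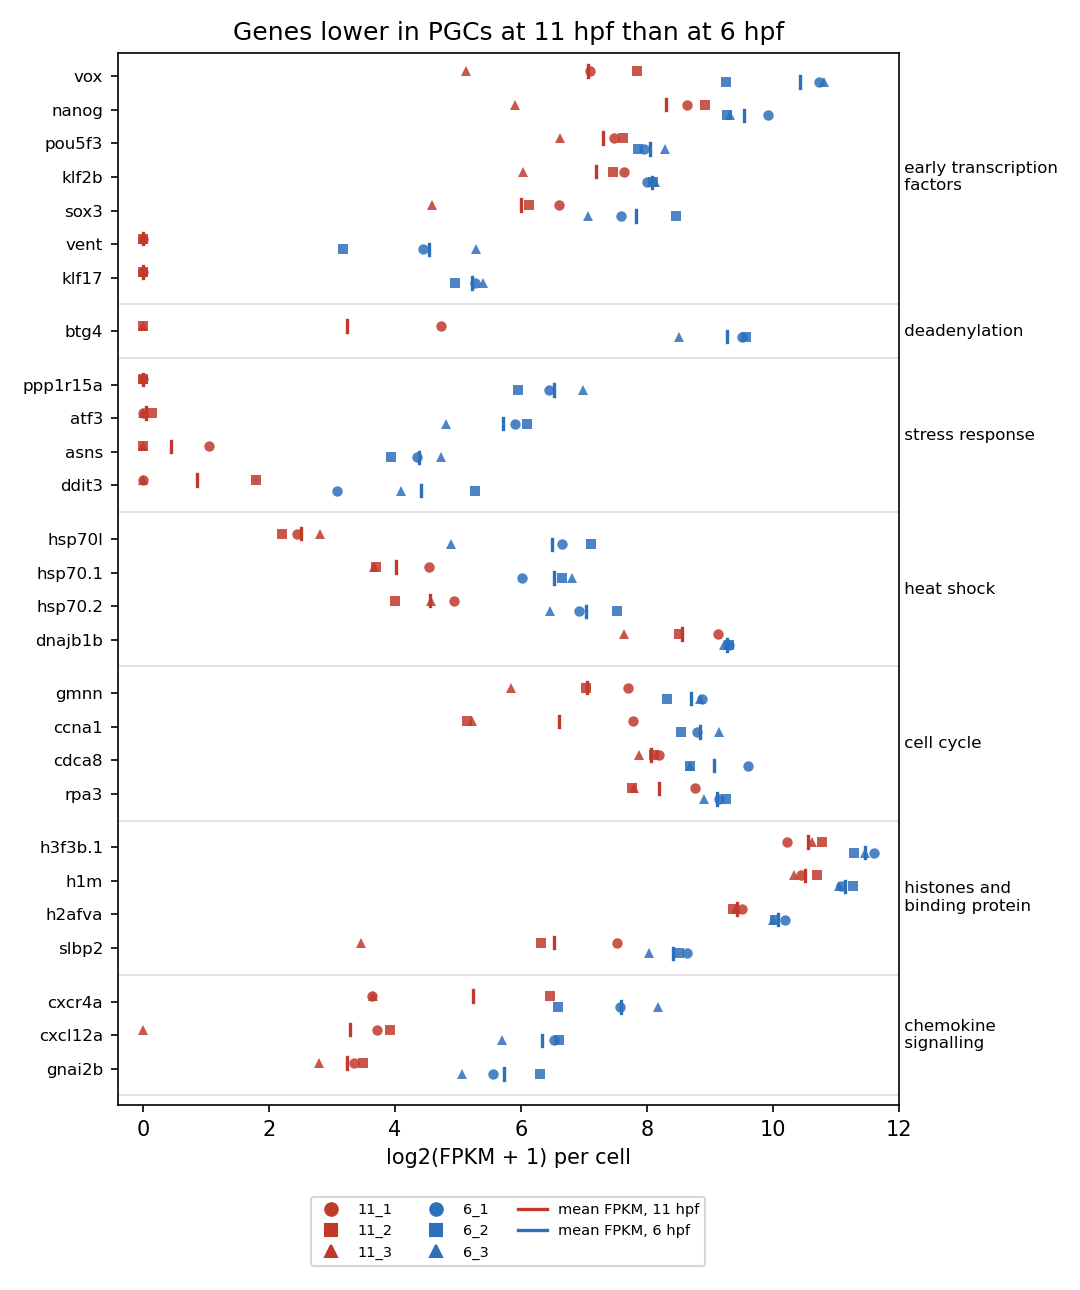
FPKM of lower genes from the lists of transcription factors, stress, cell cycle, histone and chemokine genes and btg4, as log2(FPKM + 1), with red symbols for the 3 cells at 11 hpf, blue symbols for the 3 cells at 6 hpf and short bars for the mean FPKM. In each row all red symbols lie left of all blue ones, and klf17, vent and ppp1r15a were listed at 0 in every cell at 11 hpf.

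Several genes of the cellular stress response were lower at 11 hpf. Of 63 immediate early and stress response genes in the table, 30 were kept, 7 (23.3%) were lower and 2 (6.67%) higher at 11 hpf, against 8.04% and 6.71% of all kept genes. Without 11_3, 8 (26.7%) were lower and 3 (10%) higher, against 12.4% and 12.3% of all kept genes. The median difference of -0.27 was within the spread of 0.64, and it was -0.64 without 11_1, -0.56 without 11_2 and -0.16 without 6_2. Among the 15 members with an FPKM of at least 1 in all 6 cells the median was -0.013, with 7 above 0. Among the lower genes were members of the integrated stress response, in which phosphorylation of the initiation factor eIF2 alpha slows translation. The phosphatase subunit gene ppp1r15a (ENSDARG00000069135), whose product reverses this phosphorylation, was at 0 in every cell at 11 hpf, against 86.5, 61.4 and 126 FPKM at 6 hpf. The transcription factor genes atf3 and ddit3 had similar patterns, with atf3 (ENSDARG00000007823) at 0, 0.107 and 0 FPKM at 11 hpf, against 59.2, 67.8 and 27.0 FPKM at 6 hpf. Both ppp1r15a and atf3 passed the filter only through 6 hpf and could only be called lower. FPKM of ddit3 were 0, 2.47 and 0 at 11 hpf, against 7.47, 37.5 and 16.1 at 6 hpf. The asparagine synthetase gene asns, a target of this response, was at 1.07, 0 and 0 FPKM at 11 hpf, against 19.5, 14.3 and 25.7 FPKM at 6 hpf. The unfolded protein factor xbp1 also fell, with a smaller difference (129.7, 122 and 86.8 FPKM at 11 hpf, against 224, 186 and 183 FPKM at 6 hpf, difference -0.81, spread 0.35). In contrast, socs3b (ENSDARG00000026611), a feedback inhibitor of cytokine signalling, had 56.4, 36.4 and 26.1 FPKM at 11 hpf and 0 in every cell at 6 hpf, so it passed the filter only through 11 hpf. The growth arrest gene gadd45ga rose as well, with 183, 34.9 and 45.6 FPKM at 11 hpf, against 0, 25.8 and 0 FPKM at 6 hpf, and 11_1 held most of the level at 11 hpf.

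Heat shock genes of the Hsp70 family also fell, while the chaperone list as a whole showed little difference. Of 54 kept genes for heat shock proteins and chaperones, 6 (11.1%) were lower and 2 (3.7%) higher, against 8.04% and 6.71% of all kept genes. The median difference was -0.10 (spread 0.29, and -0.17 to 0.0076 with a cell left out). FPKM of the inducible gene hsp70l (ENSDARG00000055723) were 4.47, 3.65 and 6.04 at 11 hpf, against 100.05, 138 and 28.6 at 6 hpf (difference -3.97, spread 1.22). Those of hsp70.1 were 22.2, 11.9 and 11.7 at 11 hpf, against 64.1, 99.4 and 112 at 6 hpf, and those of hsp70.2 were 29.8, 15.1 and 22.9 at 11 hpf, against 120.3, 183 and 87.3 at 6 hpf. All 3 genes were lower by more than their spread, but they are near-identical copies, so their reads may have been shared between them and they are not independent. The cochaperone gene dnajb1b fell too, with 563, 363 and 197 FPKM at 11 hpf, against 635, 631 and 597 FPKM at 6 hpf (difference -0.73, spread 0.76). The constitutive family member hspa8 had overlapping cells, with 569.6, 489 and 666 FPKM at 11 hpf, against 161, 282 and 731 FPKM at 6 hpf. The chaperonin subunit cct4 (ENSDARG00000013475), which folds actin and tubulin, rose, with 145, 246 and 441 FPKM at 11 hpf, against 53.7, 13.7 and 134 FPKM at 6 hpf.

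Among cell cycle genes, as among all kept genes (8.04% lower and 6.71% higher), more met the rule as lower than as higher. In the mitosis list 7 of 58 kept genes were lower and 2 (3.45%) higher, with a median difference of -0.12 (spread 0.37). Without 6_3, 8 mitosis genes were higher and 8 lower (13.8% each), with a median of -0.03, against 11.2% and 12.7% of all kept genes. In the DNA replication list 7 of 51 kept genes (13.7%) were lower and 2 (3.92%) higher, with a median difference of -0.20 (spread 0.35). The median of the replication list was -0.51 without 11_3. The maternal cyclin A gene ccna1 (ENSDARG00000043236) had 218, 34.3 and 36.3 FPKM at 11 hpf, against 442, 371 and 565 FPKM at 6 hpf (difference -2.24, spread 1.53). The geminin gene gmnn (ENSDARG00000035957), an inhibitor of replication licensing, had 208, 129.9 and 56.7 FPKM at 11 hpf, against 472, 318 and 460.2 FPKM at 6 hpf (difference -1.66, spread 0.99). The gene cdca8, for a subunit of the chromosomal passenger complex, had 291, 276 and 233 FPKM at 11 hpf, against 781, 413 and 410.3 FPKM at 6 hpf, and the ranges lay apart with 11 hpf below. The kinesin gene kif20ba was at 0 in every cell at 11 hpf and had 10.3, 14.98 and 14.4 FPKM at 6 hpf.

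Several genes for deoxynucleotide and DNA synthesis fell. Both rows named rrm2, the small subunit of ribonucleotide reductase, were lower, one with 119, 64.7 and 52.9 FPKM at 11 hpf, against 391, 302 and 515 FPKM at 6 hpf, the other with 82.6, 101 and 84.5 FPKM at 11 hpf, against 298, 209 and 385 FPKM at 6 hpf. The rows carry the same symbol, and whether they share reads was not tested. The single-strand binding protein gene rpa3 had 436, 216 and 223 FPKM at 11 hpf, against 563, 614 and 478 FPKM at 6 hpf. In the other direction, the sliding clamp gene pcna (ENSDARG00000054155) had 514, 505 and 353 FPKM at 11 hpf, against 227, 352 and 323 FPKM at 6 hpf (difference 0.60, spread 0.45), with a gap so narrow that it no longer met the rule under median-of-ratios scaling. The centriole duplication kinase plk4 was higher, with 10.02, 19.5 and 13.04 FPKM at 11 hpf, against 2.84, 5.25 and 8.004 FPKM at 6 hpf. The mitotic cyclin gene ccnb1 had overlapping cells, with 471, 819 and 509 FPKM at 11 hpf, against 1235, 1035 and 747 FPKM at 6 hpf.

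Histone genes were lower or showed no separation. The list held 18 genes, of which 14 were kept, 4 (28.6%) lower and 0 higher at 11 hpf, against 8.04% and 6.71% of all kept genes. The median difference was -0.29 (spread 0.57, and -0.45 to -0.18 with a cell left out). The replication-independent histone H3.3 gene h3f3b.1 (ENSDARG00000020504) had 1192, 1762 and 1585 FPKM at 11 hpf, against 3125, 2508 and 2816 FPKM at 6 hpf (difference -0.90, spread 0.33). The H2A.Z gene h2afva (ENSDARG00000068820) had 729, 657 and 685 FPKM at 11 hpf, against 1171, 1049 and 1026 FPKM at 6 hpf (difference -0.65, spread 0.13). Both genes had narrow ranges within each stage and no overlap between stages. The histone mRNA binding protein gene slbp2 had 183, 79.0 and 10.1 FPKM at 11 hpf, against 397, 365 and 261 FPKM at 6 hpf, and the maternal histone gene h2af1al had 2383, 1594 and 521 FPKM at 11 hpf, against 2650.5, 2532 and 2339 FPKM at 6 hpf, with overlapping cells. Several histone genes have near-identical copies, so reads may have been split between them. The histone genes together held 1.43%, 1.41% and 1.19% of the summed FPKM at 11 hpf, against 2.02%, 1.87% and 2.03% at 6 hpf.

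The genes that rose included many that act in the nucleolus, where ribosomes are assembled. Of 111 such genes in the table, 108 were kept, 14 (13%) were higher and 3 (2.78%) lower at 11 hpf, against 6.71% and 8.04% of all kept genes. The median difference was 0.53, larger than the spread of 0.40, and 80 of the 108 genes were above 0. Without 6_1 the median was 0.38 and within its spread of 0.40. Among the 73 members with an FPKM of at least 1 in all 6 cells the median was 0.48, with 55 above 0. Together these genes held 2.09%, 2.10% and 2.65% of the summed FPKM at 11 hpf, against 1.56%, 1.58% and 1.92% at 6 hpf. Without 11_3 the list median was 0.33, with 20 members higher (18.5%) and 7 lower (6.48%), against 12.3% and 12.4% of all kept genes. The mean log2(FPKM + 1) of the list overlapped between stages, with 5.41, 5.36 and 6.02 at 11 hpf, against 5.07, 5.15 and 5.38 at 6 hpf.

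The most abundant member was npm1a (ENSDARG00000014329), the nucleolar chaperone nucleophosmin, with 1115, 1378 and 1511 FPKM at 11 hpf, against 769, 900.3 and 843 FPKM at 6 hpf (difference 0.67, spread 0.25). The small nucleolar RNP core gene nop56 (ENSDARG00000012820) had 499, 422 and 262 FPKM at 11 hpf, against 155, 159 and 154 FPKM at 6 hpf (difference 1.33, spread 0.48). The 3 cells at 6 hpf were within a few FPKM of each other, and the lowest cell at 11 hpf, 11_3, was well above them. The gene gnl3, for the nucleolar GTPase nucleostemin (ENSDARG00000006219), had 263, 341 and 423 FPKM at 11 hpf, against 110.1, 146 and 114 FPKM at 6 hpf (difference 1.47, spread 0.41). The ribosome assembly factor nop16 had 493, 334 and 305 FPKM at 11 hpf, against 116, 159 and 205 FPKM at 6 hpf (difference 1.23, spread 0.55). Outside the list, FPKM of nifk, for a nucleolar protein that binds Ki-67, were 259.6, 549.9 and 532 at 11 hpf, against 227, 176 and 144 at 6 hpf. Subunits of RNA polymerase I, which transcribes ribosomal RNA, were also among the higher genes, with polr1b at 23.5, 25.3 and 26.2 FPKM at 11 hpf, against 0, 21.1 and 6.64 FPKM at 6 hpf. In the other direction, the helicase gene ddx47 was at 0 in every cell at 11 hpf and had 14.5, 15.2 and 18.9 FPKM at 6 hpf. It was at 87.3, 73.8 and 206 FPKM at 24 hpf.

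Of the 26 gene lists, that of translation factors was the other one whose median exceeded its spread, the marker lists being left aside. Of 71 kept genes 15 (21.1%) were higher and 2 (2.82%) lower at 11 hpf, against 6.71% and 8.04% of all kept genes, and the median difference was 0.30 (spread 0.26). The median was 0.18 without 11_3 and 0.49 without 6_3. It was within the spread without 11_1, 11_3 or 6_1, without a filter (0.20, spread 0.28), with median-of-ratios scaling (0.21, spread 0.22) and with a pseudocount of 0.1 (0.30, spread 0.33). Without 11_3, 22 members were higher (31%) and 5 lower (7.04%), against 12.3% and 12.4% of all kept genes, under a rule that is easier to meet. The mean log2(FPKM + 1) of the list was 5.75, 5.62 and 5.84 at 11 hpf, against 5.31, 5.08 and 5.55 at 6 hpf, with no overlap. Subunits of eIF3, the scaffold that prepares the small ribosomal subunit for initiation, were among them. FPKM of eif3g (ENSDARG00000016889) were 337, 299 and 562 at 11 hpf, against 88.0, 0 and 66.1 at 6 hpf (difference 2.93, spread 3.66), and the value of 0 in 6_2 widened the spread. FPKM of eif3ea were 116, 83.8 and 367 at 11 hpf, against 43.9, 66.6 and 64.1 at 6 hpf. Cell 11_3 was the highest for both.

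Factors that recruit mRNA to the ribosome moved in both directions. The scaffold gene eif4g1a had 49.0, 45.03 and 13.6 FPKM at 11 hpf, against 8.89, 9.49 and 11.7 FPKM at 6 hpf (difference 1.74, spread 1.010). The cap-binding protein gene eif4e3 was at 0 in every cell at 11 hpf, against 23.1, 16.5 and 14.2 FPKM at 6 hpf. Genes for binding proteins that hold eIF4E inactive were found on both sides, with eif4ebp3l lower, at 36.6, 108 and 67.8 FPKM at 11 hpf, against 233, 175 and 221 FPKM at 6 hpf. Its relative eif4ebp2 was among the 15 higher members, and it was named after its values were seen (39.5, 39.6 and 33.5 FPKM at 11 hpf, against 9.86, 9.58 and 14.3 FPKM at 6 hpf).

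Ribosomal proteins and transfer RNA synthetases showed less separation. Of 84 kept genes for cytosolic ribosomal proteins 10 (11.9%) were higher and 5 (5.95%) lower, against 6.71% and 8.04% of all kept genes. The median difference of 0.21 was within the spread of 0.66. The median was -0.09 without 11_3, the cell in which these genes held 2.35% of the summed FPKM, against 1.47% and 1.71% in 11_1 and 11_2 and 1.55%, 1.64% and 1.67% at 6 hpf. The small subunit gene rps6 rose, with 118, 219.7 and 307 FPKM at 11 hpf, against 34.7, 62.2 and 89.98 FPKM at 6 hpf (difference 1.77, spread 0.97), and rps18 rose, with 167, 174 and 149 FPKM at 11 hpf, against 84.9, 81.9 and 14.3 FPKM at 6 hpf. The large subunit gene RPL37A fell, with 258, 271 and 675 FPKM at 11 hpf, against 787, 859.9 and 941 FPKM at 6 hpf (difference -1.10, spread 0.79). Ribosomal protein genes can have near-identical copies, so reads may have been split between loci. The 20 kept transfer RNA synthetase genes had a median difference of 0.79 (spread 0.87), which was 0.087 without 11_3. Without that cell 2 genes were higher and 2 lower (10% each), against 12.3% and 12.4% of all kept genes. Over all 6 cells sars rose, at 80.1, 19.2 and 22.9 FPKM at 11 hpf, against 0, 18.5 and 0 FPKM at 6 hpf.

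**Figure D3:**
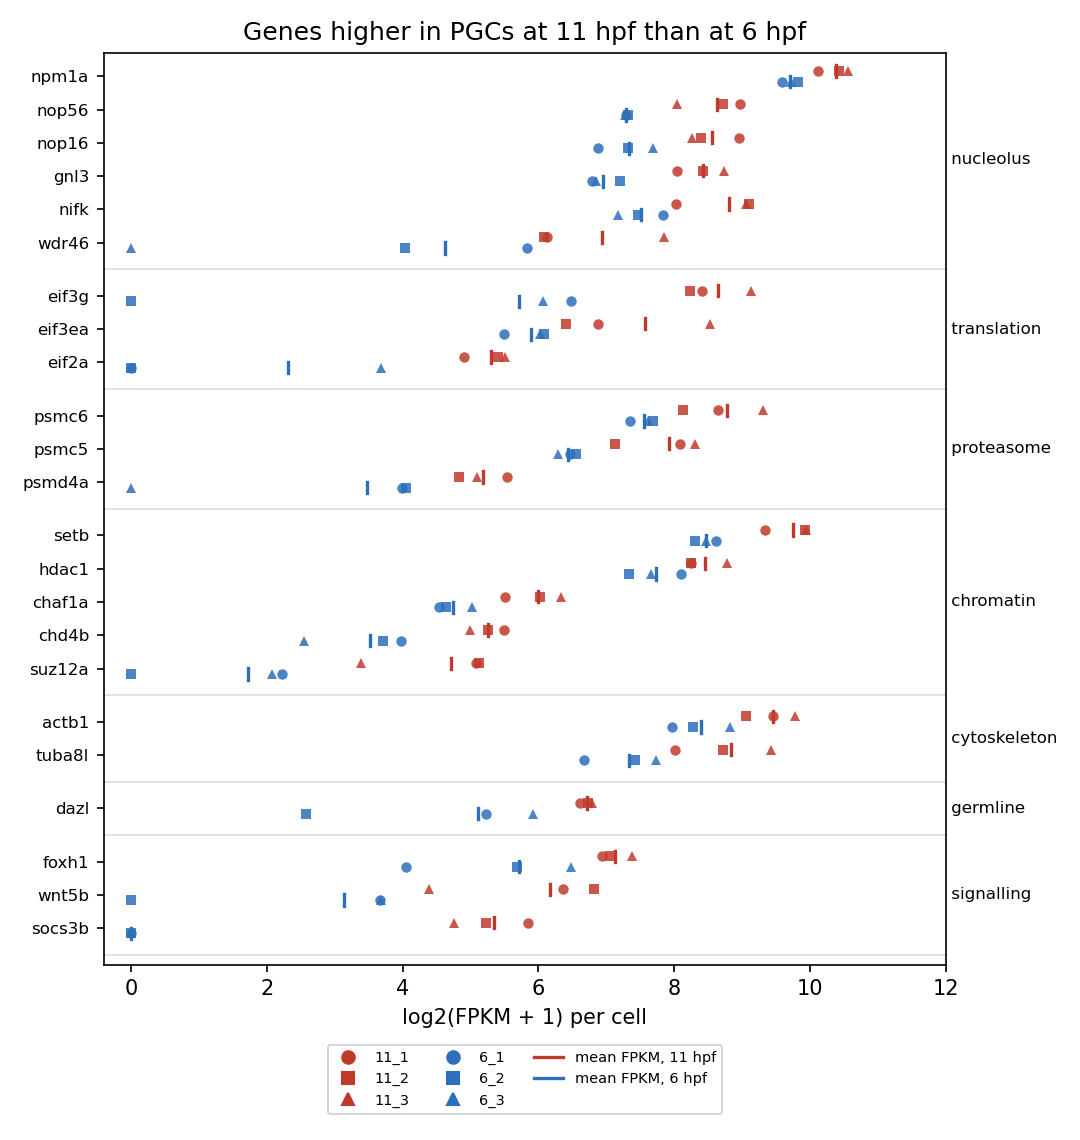
FPKM of genes that were higher at 11 hpf, as log2(FPKM + 1), with red symbols for the 3 cells at 11 hpf, blue symbols for the 3 cells at 6 hpf and short bars for the mean FPKM. In each row all red symbols lie right of all blue ones, and npm1a had the highest level of these genes.

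Subunits of the proteasome, which degrades ubiquitin-tagged proteins, were more often higher than lower. Of 47 kept genes 9 (19.1%) were higher and 4 (8.51%) lower, against 6.71% and 8.04% of all kept genes, and 33 were above 0, but the median difference of 0.42 was within the spread of 0.49 (0.37 to 0.65 with a cell left out). The ATPase subunit genes psmc6 and psmc5 rose. FPKM of psmc6 (ENSDARG00000037038) were 401, 278 and 634 at 11 hpf, against 163, 206 and 194 at 6 hpf (difference 1.22, spread 0.62). Those of psmc5 (ENSDARG00000015315) were 270.1, 139 and 315 at 11 hpf, against 87.4, 93.1 and 76.9 at 6 hpf (difference 1.48, spread 0.64). In both genes 11_2 was the lowest cell at 11 hpf and still above all cells at 6 hpf. The ubiquitin receptor gene psmd4a was higher, with 45.7, 27.5 and 33.1 FPKM at 11 hpf, against 14.8, 15.6 and 0 FPKM at 6 hpf. The name PSMD2 stands on 2 rows, both higher and with close values at 6 hpf, and whether they share reads was not tested. The core particle gene PSMA2 went the other way, with 0, 0 and 15.8 FPKM at 11 hpf, against 239, 152 and 110.5 FPKM at 6 hpf, and it was at 408, 297 and 353 FPKM at 24 hpf. The core particle gene psmb2 was lower, with 23.8, 23.6 and 57.2 FPKM at 11 hpf, against 81.4, 83.8 and 63.5 FPKM at 6 hpf.

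Chromatin regulators were detected at moderate levels. Of 58 kept genes 6 (10.3%) were higher and 3 (5.17%) lower, against 6.71% and 8.04% of all kept genes. The median difference was 0.22 (spread 0.27, and 0.11 to 0.36 with a cell left out). Paralogues of the Polycomb subunit Suz12, part of the complex that methylates histone H3, met the rule in opposite directions. FPKM of suz12a (ENSDARG00000070256) were 32.8, 33.8 and 9.46 at 11 hpf, against 3.67, 0 and 3.22 at 6 hpf (difference 3.00, spread 1.59). The paralogue suz12b (ENSDARG00000098924) was at 0 in every cell at 11 hpf, against 20.9, 10.9 and 29.6 FPKM at 6 hpf. It thus passed the filter only through 6 hpf and could only be called lower. Among chromatin remodellers, chd4b of the NuRD complex rose, with 44.1, 37.2 and 30.8 FPKM at 11 hpf, against 14.7, 12.05 and 4.83 FPKM at 6 hpf (difference 1.73, spread 0.80), and the ISWI ATPase smarca5 fell, with 4.14, 13.8 and 7.79 FPKM at 11 hpf, against 57.9, 49.4 and 45.9 FPKM at 6 hpf (difference -2.44, spread 0.78). The histone deacetylase gene hdac1 rose, with 304, 304 and 439 FPKM at 11 hpf, against 273, 160.4 and 200.04 FPKM at 6 hpf, as did chaf1a, a subunit of the chromatin assembly factor, with 44.6, 63.8 and 79.6 FPKM at 11 hpf, against 22.2, 24.0 and 31.5 FPKM at 6 hpf. The maintenance DNA methyltransferase dnmt1 fell, with 3.32, 8.39 and 14.4 FPKM at 11 hpf, against 18.04, 33.9 and 19.1 FPKM at 6 hpf. The histone chaperone gene setb (ENSDARG00000003920), which was not in this list, had the highest level among the genes that rose at least 2-fold, with 645, 969 and 976 FPKM at 11 hpf, against 390.3, 317 and 352 FPKM at 6 hpf (difference 1.29, spread 0.37).

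**Figure D4:**
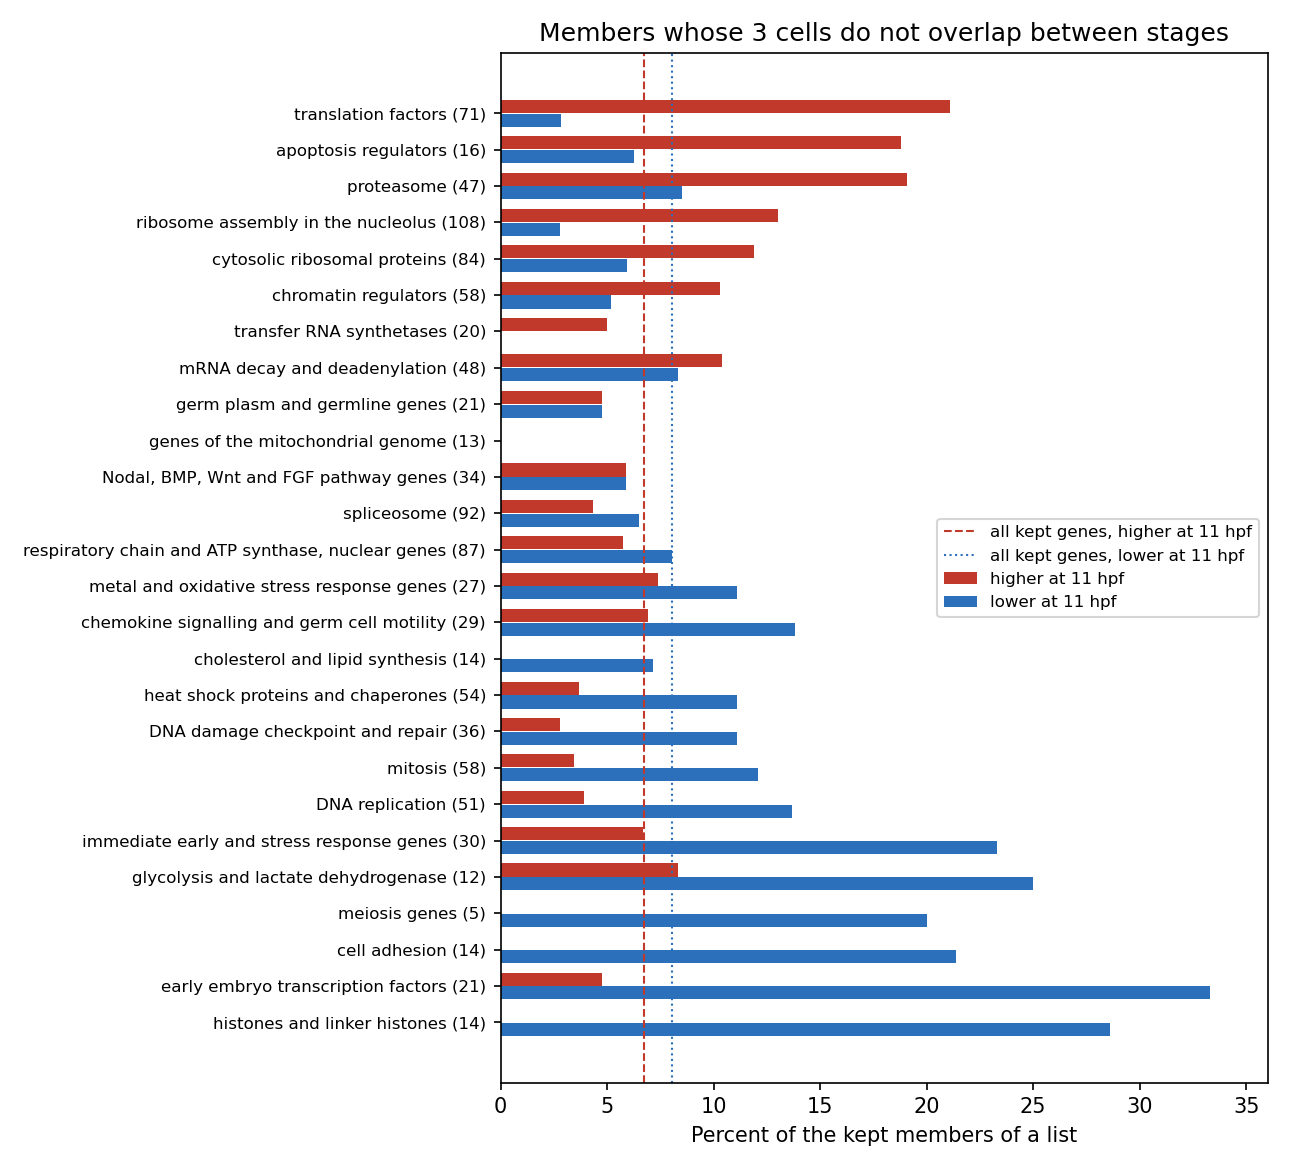
Share of the kept members of each of the 26 gene lists that were higher at 11 hpf (red bars) and lower at 11 hpf (blue bars), in percent, with the number of kept members in parentheses. The red dashed line marks 6.71% and the blue dotted line 8.04%, the shares over all kept genes, and bars of lists with few members rest on few genes.

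Genes of chemokine signalling and germ cell motility were compared because the cells migrate at both stages. Of 45 genes in the table, 29 were kept, 2 (6.9%) were higher and 4 (13.8%) lower, against 6.71% and 8.04% of all kept genes. The median difference was -0.07 (spread 0.31). It was -0.19 without 11_3, -0.35 without 6_1 and 0.05 without 6_3. The guidance receptor gene cxcr4b (ENSDARG00000041959) was among the most abundant genes and its cells overlapped, with 1462, 1362 and 1570.5 FPKM at 11 hpf, against 1336, 1793 and 1490.1 FPKM at 6 hpf. The ligand gene cxcl12a (ENSDARG00000037116), usually expressed by somatic cells along the route, fell, with 12.11, 14.2 and 0 FPKM at 11 hpf, against 91.5, 96.1 and 51.1 FPKM at 6 hpf (difference -3.04, spread 2.27). The related receptor gene cxcr4a, which is known from endoderm, was lower, with 11.5, 87.4 and 11.6 FPKM at 11 hpf, against 191, 94.9 and 289 FPKM at 6 hpf, where 11_2 lay just under the lowest cell at 6 hpf. The gene gnai2b, for an inhibitory G protein subunit that couples to such receptors, fell, with 9.17, 10.3 and 5.92 FPKM at 11 hpf, against 46.0, 78.1 and 32.4 FPKM at 6 hpf (difference -2.49, spread 0.73).

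Single genes of the cytoskeleton moved in both directions, and they were not counted as a list of their own. Of those given here, actb1 is among the 2 higher members of the list of chemokine signalling and germ cell motility. The FPKM of rac1a (ENSDARG00000074849), which promotes actin protrusion, was 287, 297 and 340.1 at 11 hpf, against 364, 391.8 and 392.5 at 6 hpf (difference -0.31, spread 0.14). The difference for rac1a was small, but its cells were tightly grouped. The beta actin gene actb1 (ENSDARG00000037746), the endogenous control of the qPCR, was higher at 11 hpf, with 699, 530.1 and 880.1 FPKM at 11 hpf, against 248, 310.5 and 449 FPKM at 6 hpf (difference 1.06, spread 0.56). The alpha tubulin gene tuba8l rose, with 256, 419 and 689 FPKM at 11 hpf, against 101, 171 and 212 FPKM at 6 hpf (difference 1.49, spread 0.90). In contrast, the dynein light chain gene dynll1 fell, with 485, 642 and 106 FPKM at 11 hpf, against 1113, 1133 and 714 FPKM at 6 hpf.

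Some junction and adhesion genes were lower at 11 hpf. Of 14 kept cell adhesion genes 3 (21.4%) were lower and 0 higher, against 8.04% and 6.71% of all kept genes. The median difference of the list was -0.02 (spread 0.36, and -0.23 to 0.13 with a cell left out). The lower members were the integrin gene itgav, the claudin gene cldnd and thy1, a surface glycoprotein gene. FPKM of itgav were 0.0853, 0 and 0 at 11 hpf, against 11.0, 3.80 and 13.8 at 6 hpf, so it passed the filter only through 6 hpf. FPKM of cldnd were 33.2, 155 and 98.3 at 11 hpf, against 211, 513 and 402 at 6 hpf (difference -1.96, spread 1.31). Outside this list, the claudin gene cldng was lower, with 226, 267 and 68.1 FPKM at 11 hpf, against 590.1, 705 and 403 FPKM at 6 hpf. The junction protein gene f11r.1 and the polarity gene crb3b were both at 0 in every cell at 11 hpf. FPKM of f11r.1 were 38.1, 85.3 and 84.2 at 6 hpf and those of crb3b were 45.6, 44.1 and 37.4. The epidermal markers given above were, by contrast, more often present in 11_1 and 11_2 than in the cells at 6 hpf.

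In the pathways of Nodal, BMP, Wnt and FGF 34 of 73 genes were kept, 2 were higher and 2 lower (5.88% each), against 6.71% and 8.04% of all kept genes. The median difference was -0.06 (spread 1.02). It was 0.17 without 11_3 and 0.40 without 6_3. Besides foxh1, the ligand gene wnt5b rose, with 81.1, 112 and 19.9 FPKM at 11 hpf, against 11.7, 0 and 11.8 FPKM at 6 hpf (difference 3.03, spread 2.48). The Nodal coreceptor gene tdgf1 was lower, with 22.9, 76.9 and 0 FPKM at 11 hpf, against 186, 87.5 and 81.9 FPKM at 6 hpf, and so was the FGF target gene etv5b, with 1.05, 0.496 and 0 FPKM at 11 hpf, against 1.56, 4.67 and 19.7 FPKM at 6 hpf. The BMP family gene admp, which is expressed by axial mesoderm, was at 0 in every cell at 11 hpf and had 42.1, 39.1 and 23.1 FPKM at 6 hpf. The BMP inhibitor gene bambia had overlapping cells, with 594, 491 and 0 FPKM at 11 hpf, against 557, 179.7 and 698 FPKM at 6 hpf.

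Among regulators of cell death, bcl2l1 and casp2 rose and badb fell. Of 16 kept apoptosis regulators 3 (18.8%) were higher and 1 (6.25%) lower, against 6.71% and 8.04% of all kept genes, with a median difference of -0.29 (spread 1.26, and -0.48 to 0.073 with a cell left out). The survival gene bcl2l1 rose, with 80.0, 78.4 and 110.1 FPKM at 11 hpf, against 46.3, 7.25 and 39.4 FPKM at 6 hpf (difference 1.501, spread 1.42), and badb, a gene that promotes cell death, fell, with 49.6, 48.1 and 0 FPKM at 11 hpf, against 123, 62.3 and 85.9 FPKM at 6 hpf. The initiator caspase gene casp2 rose too, with 1.86, 17.1 and 11.7 FPKM at 11 hpf, against 0, 0 and 0.318 FPKM at 6 hpf. By function bcl2l1 and casp2 act in opposite directions, but casp2 passed the filter only through 11 hpf and could only be called higher. Of 36 kept DNA damage and repair genes 4 (11.1%) were lower and 1 (2.78%) higher, against 8.04% and 6.71% of all kept genes. The median difference of -0.20 was within the spread of 0.53 (-0.45 to -0.01 with a cell left out). It was 0.03 at a minimum of 5 FPKM. Among the 9 members with an FPKM of at least 1 in all 6 cells it was 0.22, with 5 above 0. The checkpoint kinase gene chek1 (ENSDARG00000104765) fell, with 8.07, 0.815 and 7.44 FPKM at 11 hpf, against 40.4, 47.7 and 193 FPKM at 6 hpf (difference -3.88, spread 1.79). The mismatch repair gene pms2 was lower, with 0 in every cell at 11 hpf, against 9.11, 11.4 and 14.8 FPKM at 6 hpf.

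Genes of energy metabolism were mostly not separated between stages. Of 87 kept nuclear genes of the respiratory chain and ATP synthase 5 (5.75%) were higher and 7 (8.05%) lower, close to the shares of all genes, and the median difference was 0.11 (spread 0.50, and -0.14 to 0.23 with a cell left out). The ATP synthase gene atp5o (ENSDARG00000001788) rose, with 182, 97.7 and 305 FPKM at 11 hpf, against 34.5, 77.5 and 84.6 FPKM at 6 hpf (difference 1.56, spread 1.08), and atp5g1, for the membrane ring of the same enzyme, fell, with 716, 769 and 732 FPKM at 11 hpf, against 1270.4, 923 and 896 FPKM at 6 hpf (difference -0.48, spread 0.28). None of the 13 genes of the mitochondrial genome met the rule, although 12 of them were below 0, and their median difference of -0.58 was within the spread of 1.47. This count rested on 6_3, without which 7 of the 13 (53.8%) were lower, against 12.7% of all kept genes, with a median of -0.81. These 13 genes held 0.95%, 1.99% and 1.26% of the summed FPKM at 11 hpf, against 2.37%, 2.08% and 1.12% at 6 hpf. The row AC024175.4, which has only a clone name and is not among the 13, had the highest FPKM in every cell. It held 9.45%, 14.73% and 12.25% of the summed FPKM at 11 hpf, against 17.96%, 15.29% and 12.5% at 6 hpf. Its identity was not worked out. Of 12 kept genes of glycolysis and lactate dehydrogenase 3 (25%) were lower and 1 (8.33%) higher, against 8.04% and 6.71% of all kept genes. Their median difference was -0.06 (spread 0.47, and -0.40 to 0.25 with a cell left out). At a common total per cell 1 was lower and 1 higher, and under median-of-ratios scaling 3 were lower and 0 higher. The glycolysis gene gapdh was lower, with 376, 279 and 252 FPKM at 11 hpf, against 443, 389 and 398 FPKM at 6 hpf (difference -0.44, spread 0.32), but not once the cells were brought to the same total. Of 27 kept genes of the metal and oxidative stress response 2 (7.41%) were higher and 3 (11.1%) lower, against 6.71% and 8.04% of all kept genes. The median difference was -0.33 (spread 0.40, and -0.45 to 0.014 with a cell left out). The mitochondrial peroxiredoxin gene prdx3 rose, with 154, 131 and 213 FPKM at 11 hpf, against 47.4, 98.0 and 21.5 FPKM at 6 hpf. The cytosolic superoxide dismutase gene sod1 was lower, with 97.7, 90.3 and 26.4 FPKM at 11 hpf, against 213, 195 and 102 FPKM at 6 hpf.

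Spliceosome genes showed little difference, with 4 of 92 kept genes (4.35%) higher and 6 (6.52%) lower, against 6.71% and 8.04% of all kept genes. The median difference was 0.07 (spread 0.24, and -0.05 to 0.28 with a cell left out). The Sm protein gene snrpd3 fell, with 1355, 1455 and 1591 FPKM at 11 hpf, against 2435, 1747 and 1974 FPKM at 6 hpf (difference -0.48, spread 0.27), and snrpe fell, with 180.3, 124 and 224 FPKM at 11 hpf, against 412, 577 and 386 FPKM at 6 hpf (difference -1.38, spread 0.53). The RNA-binding protein gene hnrnpc rose, with 189, 184 and 263 FPKM at 11 hpf, against 104, 91.6 and 136 FPKM at 6 hpf (difference 0.93, spread 0.41). Few meiosis genes were detected, as 5 of 26 were kept, and the synaptonemal complex gene sycp1 was lower, with 0 in every cell at 11 hpf, against 5.37, 12.4 and 4.62 FPKM at 6 hpf. It passed the filter only through 6 hpf and could only be called lower. No other kept meiosis gene met the rule, so 1 (20%) was lower and 0 higher, against 8.04% and 6.71% of all kept genes. Of 14 kept cholesterol and lipid synthesis genes 0 were higher and 1 (7.14%) was lower, against 6.71% and 8.04% of all kept genes.

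**Figure D5:**
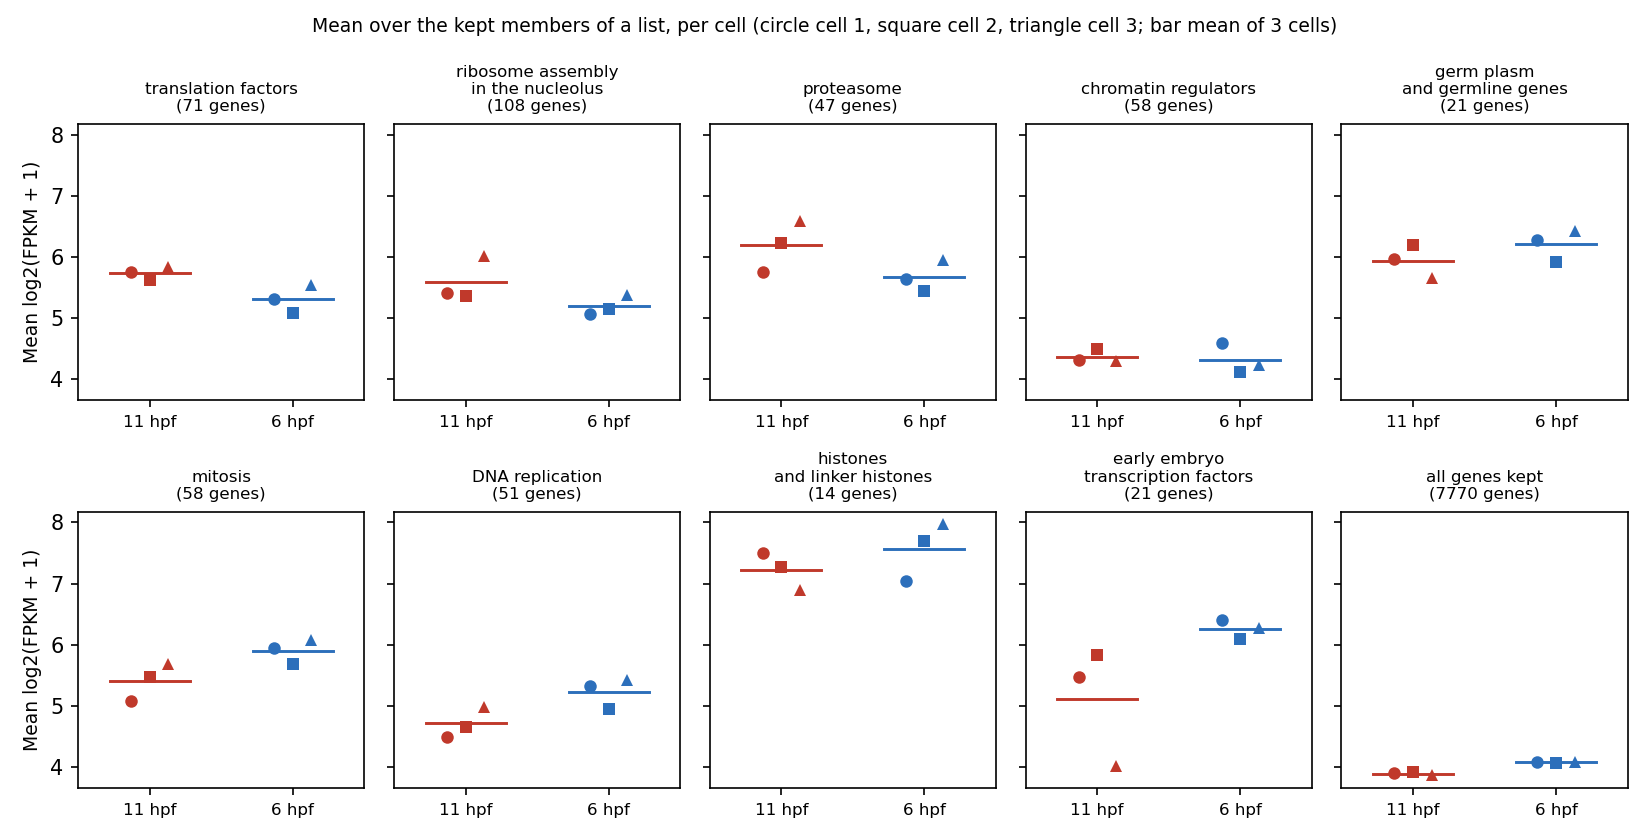
Mean log2(FPKM + 1) over the kept members of 9 gene lists and over all 7770 kept genes, for each cell, with 11 hpf in red and 6 hpf in blue and a bar for the mean of 3 cells. The 3 cells at 11 hpf lay above those at 6 hpf for the translation factors and below them for the early embryo transcription factors, the mitosis genes, where the nearest cells were at 5.69 in both stages, and all kept genes.

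The genes with the largest differences were mostly listed at 0 at one of the stages. The gene rab3da (ENSDARG00000018107), for a small GTPase of secretory vesicles, had 50.9, 31.1 and 41.9 FPKM at 11 hpf and 0 in every cell at 6 hpf. The selenoprotein gene selt2 (ENSDARG00000023220) had 31.8, 58.4 and 31.8 FPKM at 11 hpf and 0 in every cell at 6 hpf. In the same family selt1b had the opposite pattern, with 0 in all 3 cells at 11 hpf and 98.6, 49.7 and 36.6 FPKM at 6 hpf. Both selt2 and selt1b passed the filter only through the stage at which they were found, so the direction of each call was fixed by it. The ubiquitin ligase gene rnf170 was at 25.8, 61.3 and 29.2 FPKM at 11 hpf and the kinase gene cdk5 at 28.1, 16.5 and 24.2 FPKM, both with 0 in all 3 cells at 6 hpf. For pdcd2l, which had the largest difference of the higher genes (6.29), the cells at 11 hpf were unlike each other, with 35.6, 3.46 and 192 FPKM. Also at 0 in every cell at 6 hpf were tomm40l, fgfr1op, slc2a10, tp53i13, dia1a and cpsf2.

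Among the genes listed at 0 in all 3 cells at 11 hpf, the widest gap was that of tceb1a (ENSDARG00000045355), an Elongin C gene, with 81.4, 74.2 and 73.2 FPKM at 6 hpf. The cells at 6 hpf were within a narrow range here, as they were for rnmtl1b, with 70.4, 67.2 and 82.0 FPKM. The transfer RNA deaminase gene adat3 had 64.5, 72.4 and 131 FPKM at 6 hpf, and park7, known for protection from oxidative stress, had 45.01, 147 and 74.6 FPKM. At 24 hpf park7 was at 91.2, 47.1 and 23.7 FPKM. Of all lower genes, 138 (22.1%) were at 0 in every cell at 24 hpf, against 47 (9.02%) of the higher genes and 15% of all kept genes.

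Over all kept genes, 6.71% were higher and 8.04% lower at 11 hpf. Of the 20 genes that the authors chose for single-cell qPCR, 4 were higher, 3 were lower and 13 met the rule in neither direction. The higher ones were eif3g, cct4, atp5o and coq9, and the lower ones nanog, cdca8 and dnajb1b. The ubiquinone synthesis gene coq9 had 77.9, 106 and 263 FPKM at 11 hpf, against 53.6, 32.5 and 29.8 FPKM at 6 hpf (difference 1.92, spread 1.009). The mitotic kinase gene aurka had overlapping cells, with 384, 92.1 and 84.7 FPKM at 11 hpf, against 280.0, 401 and 463 FPKM at 6 hpf, and so had the heterochromatin protein gene cbx3a, with 541, 760.4 and 1023 FPKM at 11 hpf, against 1095, 943 and 919.6 FPKM at 6 hpf.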

How the data were processed

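The series holds PGCs of 3 stages (6, 11 and 24 hpf), 3 cells each, taken from 1 embryo per stage. The authors trimmed reads with Trimmomatic 0.36, mapped them to danRer10 (GRCz10) with HISAT2 2.0.5 and used StringTie 1.3.3 to quantify the gene models of Ensembl 89. The authors deposited 1 FPKM value for each gene of a cell. Since these hold no read counts, neither a count model nor a counting error could be used. FPKM include amplification noise and are relative to all mapped fragments of a cell, so that a lower value is a lower share of the RNA. Cells were assigned to stages by their labels.

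Python 3.11.15 was used, with the packages numpy (2.4.6), pandas (2.3.3) and, for plots, matplotlib (3.10.9). Genes were kept when 3 or more of the 6 cells had an FPKM of 1 or higher. Differences were taken on log2(FPKM + 1), with a pseudocount of 1. The deposited symbols were used, and 245 kept rows were named from the reference name table by their identifier. Of the kept genes 92.1% had a reference symbol. The calculation was tested on simulated data that held no missed transcripts, so this does not show how the rule behaves where transcripts are missed.

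Genes named are those with a name of their own that met the rule: in each direction the 12 of the largest difference, the 12 of the widest gap between cells and the 8 of the highest level that differed by at least 1 on the log2 scale. For each of 26 gene lists up to 4 members per direction and the 3 of the highest level were added, together with 20 genes measured by qPCR, actb1 and the genes of 7 marker lists. The gene set, the lists and this rule were chosen with earlier results of these data known. Because the cells of a stage share an embryo, no test was run, and p-values are not given. Alternatives were other FPKM minimums, no filter, other pseudocounts, a common total per cell (TPM), median-of-ratios scaling, the mean of log2 values, a 2-fold minimum and leaving out each cell. A filter on all 6 cells and a total without the mitochondrial genes and AC024175.4, the row of the highest FPKM, were added after seeing the data. Coordinates and sequences were not used here. Some genes that met the rule for naming are not reported here.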

Additional observations from a re-analysis of the deposited data

How the results depend on the processing

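The number of higher genes was 521 and stayed between 438 and 549 over the FPKM minimums, scalings, the absent filter and the 2-fold minimum, and that of lower genes, 625, stayed between 513 and 685. With an FPKM of at least 1 in all 6 cells 272 genes were higher and 198 lower. Leaving out a cell gave 763 to 992 higher and 937 to 1004 lower genes, which is given by the looser rule. The median difference over all genes, 0.04, has no stable sign: it was -0.11 with the mean of log2 values, -0.044 with median-of-ratios scaling, -0.041 without a filter, 0.087 at a common total, 0.14 over genes present in all 6 cells, and between -0.018 and 0.10 with a cell left out (-0.018 without 11_1, -0.0075 without 11_3). The cause was not tested. PGCs at 11 hpf had 545 fewer genes on average (difference -545 genes), which was -370 at a minimum of 5 FPKM, -926 without a filter and -594.8 to -473 with a cell left out. The median of the germline list, 0.03, was -0.46 with the mean of log2 values and -0.087 to 0.42 with a cell left out, the highest without 11_3. The medians of ribosome assembly genes (0.33 to 0.71 with a cell left out) and translation factors (0.18 to 0.49) stayed above 0 in all alternatives run. So did those of the proteasome, chromatin regulators and transfer RNA synthetases. Medians of early transcription factors, mitosis, DNA replication, histone, mitochondrial genome, and immediate early and stress response genes stayed below 0 throughout. The 232 named genes that were kept include genes that met the rule in neither direction. Of those that met it, 8 no longer did at a common total, 3 under median-of-ratios scaling and 1 at the total without mitochondrial rows. Newly meeting it were 5 genes under median-of-ratios scaling and 2 at the total without mitochondrial rows. No gene that met the rule changed sign.

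No paired analysis was possible, and no test was run. The replicate numbers only name the 3 cells of a stage, which share 1 embryo, and each stage is a different embryo. The depth behind a single FPKM is unknown.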
